A study of Homo sapiens with 6 samples.

Results

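Polycomb proteins act in a pair of chromatin complexes, and the genes of 9 of their subunits are described here: EZH1, EZH2, EED, SUZ12, BMI1, RING1, RNF2, CBX2 and CBX8. They were taken from the deposited count table by gene symbol, as 9 of its 58735 genes, and 9 of 9 were among the 15400 genes with enough reads to be tested. RNA selected with poly(T) beads was sequenced in 6 libraries of a human ovarian carcinoma line, 3 of control cells and 3 of cells of BARD1-expressing genotype, all marked as stable cells at 48 h. BARD1, which forms a ubiquitin ligase with BRCA1, was introduced as an open reading frame by lentiviral transduction of OVCAR8 cells, and a GFP-BARD1 product was looked for under the microscope. No source used here gives the promoter that drives it, the number of clones or whether control cells carried an empty vector. The labels conflict on the material: sample titles have OVCAR8ip1 cells, and the tags have the line SKOV3ip1 and SKOV3ip1 tumors, with high grade ovarian serous adenocarcinoma as cell type. An effect of BARD1 cannot be told apart from other differences between the control and the transduced cells.

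Polycomb repressive complex 2 (PRC2) methylates a lysine of histone H3 and so marks genes for repression. Its catalytic subunit is EZH2 or the paralog EZH1, SUZ12 is its scaffold, and EED binds the methyl mark and stimulates the enzyme. Polycomb repressive complex 1 (PRC1) is a ubiquitin ligase for histone H2A, with RING1 or RNF2 as its catalytic subunit. BMI1 is one of the PCGF proteins that pair with that subunit. CBX2 and CBX8 carry the chromodomain that reads the PRC2 mark in the canonical form of PRC1, whereas variant forms hold RYBP or YAF2 in place of a CBX protein. BRCA1 and BARD1 ubiquitinate H2A as well, at a different site of the protein. EZH2 and BMI1 are known as genes that many carcinomas express at a high level, and EZH2 rises with proliferation in many cell types.

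Libraries held 21819199 to 23992482 reads in control cells and 12744310 to 24349158 in BARD1-expressing cells. BARD1 was at 17.1 to 19.4 CPM (reads per 1000000 library reads after TMM scaling of library sizes) in control libraries and at 44.3 to 49.0 CPM in BARD1-expressing libraries, so the group labels held for the introduced gene. Of the epithelial markers, KRT8, KRT18, EPCAM and CDH1 had enough reads to be tested and KRT19 had none. CDH1 was low, with 23 to 28 reads in control and 12 to 24 in BARD1-expressing libraries. The summed level of the 5 epithelial markers was 2782 to 2864 CPM in control and 2655 to 2803 CPM in BARD1-expressing libraries. The 5 endothelial markers summed to 0.569 to 0.660 and 0.786 to 1.26 CPM, and the 5 leukocyte markers to 0.185 to 0.330 and 0.165 to 0.464 CPM. The 5 fibroblast markers summed to 1014 to 1082 and 838 to 886 CPM, most of it COL1A1, while PDGFRB had 94 to 134 and 163 to 333 reads, DCN had none and COL1A2 and COL3A1 at most 2 in any library. COL1A1 was called lower and PDGFRB higher, at log2 fold changes of -0.32 and 1.51. The part of these markers in the results was not tested. In bulk RNA, fewer cells of a kind and less RNA per cell cannot be told apart.

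BMI1, CBX2 and CBX8, which are PRC1 subunits, were lower in BARD1-expressing cells, by 25.4%, 25.5% and 32.8%. The PRC2 genes EZH2, EZH1, EED and SUZ12 and the PRC1 ligase genes RING1 and RNF2 did not pass the test. Thus 3 of 9 subunit genes fell and 0 rose (adjusted p under 0.05 over all tested genes, edgeR). Of all tested genes 12.4% were called lower, 16.5% higher and 29.0% in either direction. At an unadjusted p under 0.05 (edgeR), 5 of the 9 were lower and 0 higher. That cut is looser, and at least 5912 of the 15400 tested genes passed it in either direction. The shares above are therefore no measure for these 5. At adjusted p, DESeq2 and limma voom also gave 3 lower and 0 higher. The median log2 fold change (BARD1-expressing over control) of the 9 was -0.13, against -0.0027 for all tested genes. Library values are shown in the plot of counts by library.

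**Figure D1:**
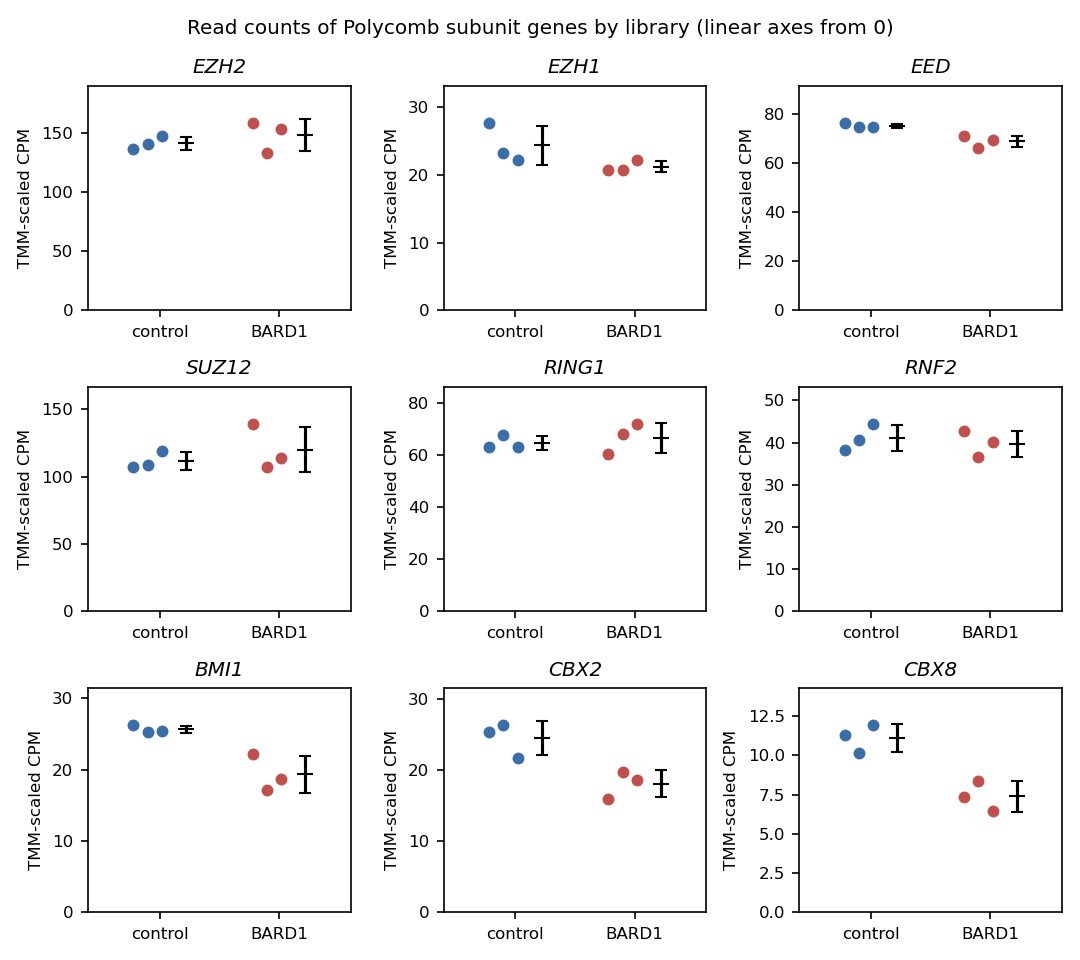
TMM-scaled CPM of each of the 9 subunit genes (vertical axes, linear from 0, a scale for each gene) in 3 control libraries (blue) and 3 BARD1-expressing libraries (red), with the mean and SD of each group in black. The groups are separate for BMI1, CBX2, CBX8 and EED and overlap for the other genes.

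Promoter sequences are shown for BMI1, which fell, and for the PRC2 genes EZH2 and SUZ12, which did not pass the test, because E2F factors and MYC are known regulators of Polycomb genes and bind short motifs near start sites. The 250 bases before a RefSeq start site (GRCh38.p14) were searched on both strands for the E-box CACGTG and for the E2F motifs TTTCCCGC, TTTCGCGC, TTTGCCGC and TTTGGCGC, none of which overlapped a match of the other kind. Of 9 genes, 7 matched the table of promoters, and CBX2 and CBX8 did not. Matches are in capitals.
BMI1 (chr10:22320849-22321098, plus strand): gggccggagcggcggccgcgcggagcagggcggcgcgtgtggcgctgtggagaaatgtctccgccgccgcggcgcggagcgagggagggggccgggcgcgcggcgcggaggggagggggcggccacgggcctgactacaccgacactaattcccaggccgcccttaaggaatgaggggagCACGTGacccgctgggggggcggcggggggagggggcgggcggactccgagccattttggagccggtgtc
EZH2 (chr7:148884292-148884541, minus strand): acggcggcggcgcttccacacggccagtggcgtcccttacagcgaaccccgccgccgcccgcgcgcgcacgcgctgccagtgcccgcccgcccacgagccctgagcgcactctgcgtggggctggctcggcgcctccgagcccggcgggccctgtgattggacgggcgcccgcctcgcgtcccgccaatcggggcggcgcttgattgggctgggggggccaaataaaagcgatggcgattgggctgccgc
SUZ12 (chr17:31936757-31937006, plus strand): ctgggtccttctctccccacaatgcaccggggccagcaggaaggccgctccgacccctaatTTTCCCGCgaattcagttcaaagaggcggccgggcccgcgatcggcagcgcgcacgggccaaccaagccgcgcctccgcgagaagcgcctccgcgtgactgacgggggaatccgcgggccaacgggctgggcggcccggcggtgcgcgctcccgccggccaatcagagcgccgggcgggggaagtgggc
BMI1 held 1 E-box, which began 70 bases before the first of its 2 start sites, and no E2F motif. SUZ12 held 1 E2F motif, which began 189 bases before its start, and EZH1 held 1 as well, whereas EZH2, EED, RING1 and RNF2 held neither motif. Over 35116 promoters of this length 6.34% held the E-box and 2.79% an E2F motif. The sequences of BMI1, EZH2 and SUZ12 shown above held 35, 38 and 34 CpG dinucleotides, against a median of 11 over all promoters, and that of EED held 11. A match describes these letters only.

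CBX8 (ENSG00000141570, chromosome 17, 79792132 to 79801683, minus strand, GRCh38), a chromodomain reader of canonical PRC1, changed most among the 9. The control libraries, 1 to 3, had 273, 232 and 258 reads of it, or 11.3, 10.2 and 11.9 CPM. With BARD1 the libraries, 1 to 3, had 93, 203 and 97 reads, or 7.31, 8.38 and 6.44 CPM. Every BARD1-expressing library lay below every control library. The mean fell from 11.1 ± 0.880 to 7.38 ± 0.975 CPM (SD, n = 3 each), a log2 fold change of -0.57 ± 0.127 (SE, edgeR adjusted p = 0.00129). The exact two-sided permutation test gave p = 0.1, the smallest that 3 against 3 libraries allow. An antisense gene that overlaps CBX8 on the map had at most 1 read in any library.

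CBX2 (ENSG00000173894, chromosome 17, 79778132 to 79787983, plus strand), a chromodomain protein that also compacts chromatin, was at 25.4, 26.3 and 21.7 CPM in control libraries 1 to 3. In BARD1-expressing libraries 1 to 3 it was at 16.0, 19.7 and 18.6 CPM. The groups did not overlap, although BARD1-expressing library 2 came near to control library 3. The mean fell from 24.5 ± 2.41 to 18.1 ± 1.92 CPM (SD, n = 3 each), with a log2 fold change of -0.43 ± 0.098 (SE, edgeR adjusted p = 0.00184, exact permutation p = 0.1).

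BMI1 (ENSG00000168283, chromosome 10, 22321211 to 22331484, plus strand), the PCGF subunit that stimulates the RING ligase, was nearly level over control libraries 1 to 3, at 26.2, 25.2 and 25.5 CPM. It was at 22.2, 17.1 and 18.7 CPM in BARD1-expressing libraries 1 to 3, all below the controls. BARD1-expressing library 1 lay nearest to them. The mean fell from 25.6 ± 0.504 to 19.3 ± 2.60 CPM (SD, n = 3 each), with a log2 fold change of -0.42 ± 0.094 (SE, edgeR adjusted p = 0.00137, exact permutation p = 0.1). A read-through gene, COMMD3-BMI1, overlaps BMI1 on the same strand and was listed with 0 reads in each of 6 libraries. No source used here says how reads shared by both were counted. COMMD3 alone, the upstream gene of that locus, had 70 to 99 reads in control and 38 to 101 in BARD1-expressing libraries and was not called (log2 fold change -0.16 ± 0.194).

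EZH2 (ENSG00000106462, chromosome 7, 148807383 to 148884321, minus strand), the main methyltransferase of PRC2, was at 136, 140 and 147 CPM in controls 1 to 3. BARD1-expressing libraries 1 to 3 gave 158, 133 and 154 CPM, on both sides of the control range. The change was 4.49%, with a 95% confidence interval of -4.22% to 14.0% (edgeR adjusted p = 0.480). Its log2 fold change of 0.06 was 0.0085 without BARD1-expressing library 1 and 0.14 without BARD1-expressing library 2, the extremes over the omissions. Its paralog EZH1 (ENSG00000108799, chromosome 17, 42700275 to 42745049, minus strand) was at 27.6, 23.3 and 22.1 CPM in control and 20.8, 20.7 and 22.2 CPM in BARD1-expressing cells. The change in EZH1 was -13.1% (95% interval -23.9% to -0.700%), did not pass the adjusted test (adjusted p = 0.109) and was led by control library 1.

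EED (ENSG00000074266, chromosome 11, 86244544 to 86278813, plus strand), the reader subunit of PRC2, was at 76.1, 74.6 and 74.7 CPM in controls 1 to 3, and with BARD1 at 70.8, 66.1 and 69.4 CPM. Its groups did not overlap, yet the difference was small, -8.68% (95% interval -16.1% to -0.571%), and did not pass the adjusted test (edgeR adjusted p = 0.104, exact permutation p = 0.1). Groups did not overlap for 4 of 9 subunit genes, all 4 lower in BARD1-expressing cells, where 19.2% of all tested genes were separate in that direction and 40.9% in either. SUZ12 (ENSG00000178691, chromosome 17, 31937018 to 32001045, plus strand), the scaffold, was at 107, 109 and 119 CPM in control and 139, 107 and 114 CPM in BARD1-expressing libraries. Its change of 7.02% (95% interval -5.23% to 20.9%, edgeR adjusted p = 0.418) rested on BARD1-expressing library 1, and the log2 fold change of 0.10 became -0.02 without it. The pseudogene SUZ12P1, which shares sequence with SUZ12, had 57 to 141 reads per library, against 1716 to 2597 for SUZ12. How reads that match both were counted is not given, so the uncertain part of either count is not known.

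RING1 (ENSG00000204227, chromosome 6, 33208495 to 33212722, plus strand), a catalytic subunit of PRC1, was at 63.2, 67.5 and 62.9 CPM in control and 60.3, 67.9 and 71.7 CPM in BARD1-expressing libraries. RNF2 (ENSG00000121481, chromosome 1, 185045364 to 185102608, plus strand), its paralog, was at 38.2, 40.6 and 44.3 CPM in control and 42.6, 36.5 and 40.0 CPM in BARD1-expressing libraries. The groups overlapped for both genes. The changes were 3.51% for RING1 (95% interval -6.06% to 14.1%, edgeR adjusted p = 0.635) and -3.61% for RNF2 (-13.8% to 7.74%, adjusted p = 0.662), and each changed sign when 1 library was left out. These intervals do not show that the levels were equal.

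Levels of different genes were compared per length, as TPM (length-scaled reads that sum to 1000000 in a library), from the counts and the deposited gene length. That length is 1 value per gene, 1818 bases for RING1 and 4522 for EZH2, and the order depends on it. In CPM the control means were 64.5 for RING1 and 141 for EZH2. In control cells the order was RING1 at 136 ± 6.51, EZH2 at 120 ± 3.88, SUZ12 at 65.3 ± 3.30, EED at 41.0 ± 0.601, RNF2 at 38.6 ± 2.66, BMI1 at 22.9 ± 0.477, CBX2 at 16.5 ± 1.76, EZH1 at 13.4 ± 1.62 and CBX8 at 10.2 ± 0.724 TPM (SD, n = 3 each). The libraries of EED and RNF2 overlapped, as did those of CBX2 and EZH1, so neither of these neighbours is set apart in the order. In BARD1-expressing cells the order was the same, and RING1 and EZH2 then overlapped as well (144 ± 11.1 and 129 ± 14.3 TPM). The 3 genes that fell were thus among the 4 lowest of the 9 in control cells.

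Ratios between paralogs were taken from length-scaled counts within each library, which removes library scaling, and 4 pairs were compared. The size of a ratio depends on the deposited lengths. The ratio of EZH2 to EZH1 was 9.08 ± 1.33 in control and 10.8 ± 0.925 in BARD1-expressing libraries (SD, n = 3 each), with overlapping groups (exact permutation p = 0.2, adjusted over 4 pairs 0.4). BMI1 was at 0.498 ± 0.0429 of the level of its paralog PCGF2 in control and 0.406 ± 0.0801 in BARD1-expressing libraries (exact permutation p = 0.2, adjusted 0.4). BARD1-expressing library 1, at 0.498, lay within the control range of 0.453 to 0.539. The ratio of RNF2 to RING1 (0.284 ± 0.0261 and 0.268 ± 0.0412, exact permutation p = 0.6) and that of CBX2 to CBX8 (1.63 ± 0.279 and 1.81 ± 0.269, exact permutation p = 0.5) also overlapped, with adjusted p = 0.6 for both. The log2 difference in ratio depended on single libraries. For EZH2 to EZH1 it went from 0.26 to 0.14 without control library 1, and for BMI1 to PCGF2 from -0.31 to -0.46 without BARD1-expressing library 1. For CBX2 to CBX8 it went from 0.16 to 0.025 without control library 3, and for RNF2 to RING1 from -0.09 to -0.21 without BARD1-expressing library 1. In none of these 4 pairs was a shift from one paralog to the other shown, and 3 against 3 libraries cannot give a p under 0.1.

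Among the 6 PCGF genes BMI1 made up 12.7 ± 0.518% of the summed level in control and 10.1 ± 1.35% in BARD1-expressing cells, and PCGF6 and PCGF2 made up the most in both. The summed PCGF level was 177 to 183 TPM in control and 170 to 179 TPM in BARD1-expressing libraries, ranges that overlap.

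**Figure D2:**
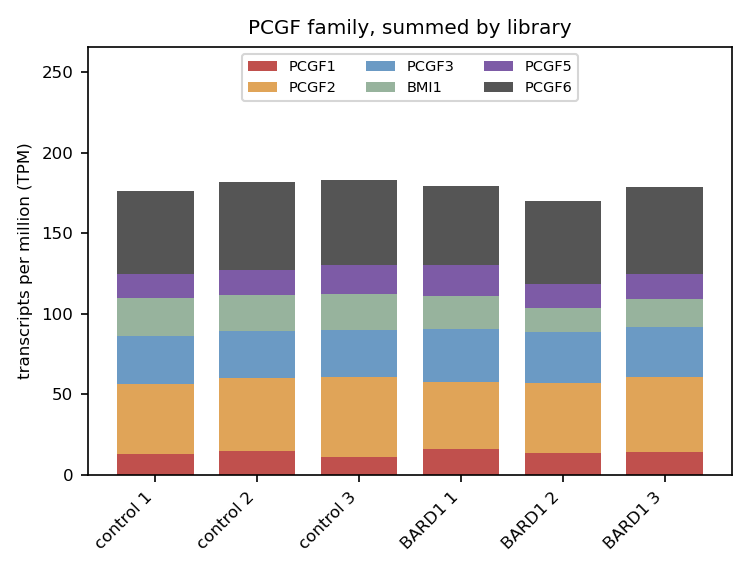
Stacked TPM (vertical axis, linear from 0) of the 6 PCGF genes in each of 3 control and 3 BARD1-expressing libraries, 1 bar per library with no error bars. The summed level is 177 to 183 TPM in control and 170 to 179 TPM in BARD1-expressing libraries, and the BMI1 segment is smaller in each BARD1-expressing library than in any control library.

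Other subunits of the same complexes moved in both directions. Of 9 tested PRC2 cofactors 4 rose and 1 fell (median log2 fold change 0.15). Over all tested genes 16.5% were called higher and 12.4% lower. PHF19, a Tudor domain protein that helps PRC2 to bind chromatin, rose from 169, 169 and 164 CPM in controls to 206, 219 and 214 CPM with BARD1 (log2 fold change 0.35 ± 0.050, edgeR adjusted p = 7.17e-06). RBBP4, a histone-binding subunit that PRC2 shares with other complexes, rose from 159 ± 3.79 to 191 ± 14.4 CPM (SD, n = 3 each, log2 fold change 0.26 ± 0.056, edgeR adjusted p = 0.00100). EPOP, a cofactor that links PRC2 to elongin, fell from 29.0, 28.6 and 22.7 CPM to 14.9, 21.1 and 16.8 CPM (log2 fold change -0.59 ± 0.121, edgeR adjusted p = 0.00131). The groups did not overlap for 6 of the 9 cofactors, PHF19, RBBP4, AEBP2, PHF1 and LCOR (higher) and EPOP (lower). Of all tested genes 21.7% were separate and higher and 19.2% separate and lower. AEBP2 (0.19 ± 0.066) and PHF1 (0.18 ± 0.063) passed narrowly (edgeR adjusted p = 0.0377 and 0.0383), and each call was lost in 8 of 12 alternatives, among them DESeq2, the replicate block and the omission of any 1 control library or of BARD1-expressing library 2. AEBP2 also lost its call without BARD1-expressing library 1, and PHF1 without BARD1-expressing library 3. JARID2, MTF2, RBBP7 and LCOR did not pass, and EZHIP had 2 reads in 1 library and none in the other 5.

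Against shares of 12.4% lower and 16.5% higher over all tested genes, 1 of 10 other canonical PRC1 genes fell and 0 rose (edgeR). At an unadjusted p under 0.05, 2 were lower and 2 higher, where at least 5912 of the 15400 tested genes passed in either direction. At adjusted p, DESeq2 and limma voom each gave 1 lower and 0 higher. The gene that fell was CBX6, a further CBX paralog, which went from 77.7, 78.4 and 68.0 CPM in control to 54.2, 59.7 and 61.1 CPM in BARD1-expressing libraries without overlap (log2 fold change -0.35 ± 0.069, edgeR adjusted p = 3.46e-04). CBX7, another paralog of low abundance, was at 0.26 ± 0.177 and did not pass (edgeR adjusted p = 0.288). PCGF2 changed by -0.10 ± 0.076 (adjusted p = 0.338), and the 3 PHC genes, which hold PRC1 together through their SAM domain, did not pass, at log2 fold changes of -0.03 to 0.16.

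**Figure D3:**
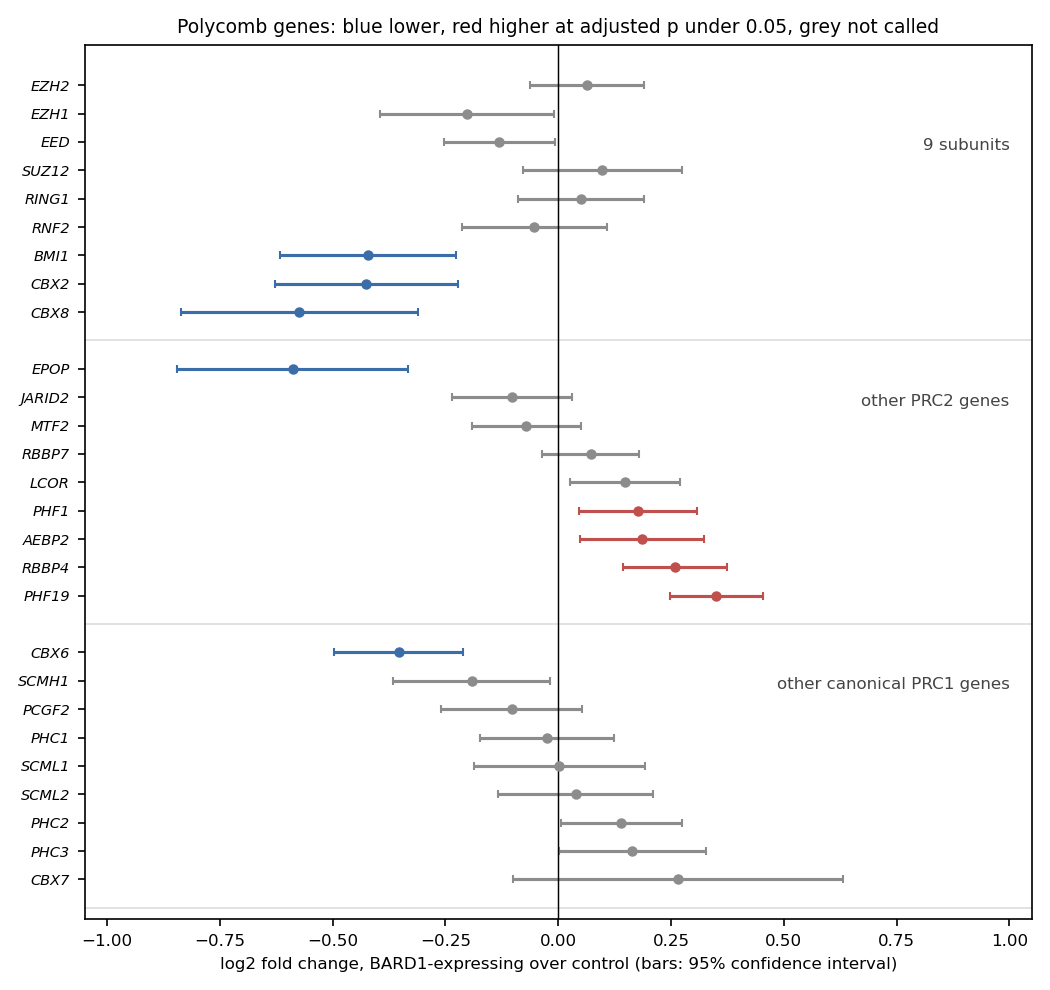
Log2 fold change (horizontal axis, BARD1-expressing over control, 3 libraries each) with 95% confidence interval for the 9 subunit genes, 9 other PRC2 genes and 9 other canonical PRC1 genes. BMI1, CBX2, CBX8, EPOP and CBX6 are blue (called lower), PHF19, RBBP4, AEBP2 and PHF1 are red (called higher), and the rest are grey.

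In variant PRC1, 3 of 20 tested genes rose and 1 fell (median -0.0077), against 16.5% higher and 12.4% lower over all tested genes. SKP1, BCOR and DCAF7 rose, with log2 fold changes of 0.60 ± 0.050, 0.40 ± 0.066 and 0.26 ± 0.052 (edgeR adjusted p = 1.56e-09, 5.28e-05 and 4.34e-04). BCOR, a corepressor of the PCGF1 form of PRC1, went from 42.6 ± 1.61 to 56.3 ± 1.69 CPM (SD, n = 3 each). SKP1 serves in SCF ubiquitin ligases as well and lies on chromosome 5 where the median log2 fold change of 37 tested neighbouring genes of any kind within 2 Mb was 0.58. L3MBTL2, a subunit of the PCGF6 form, fell (-0.24 ± 0.068, edgeR adjusted p = 0.0113), but not without control library 2 or BARD1-expressing library 3. RYBP, a subunit of variant PRC1 that competes with CBX proteins for RING1 and RNF2, changed by 0.05 ± 0.067 (adjusted p = 0.651). The PCGF genes of variant PRC1, PCGF1, PCGF3, PCGF5 and PCGF6, did not pass either, with log2 fold changes of -0.08 to 0.10.

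Of the PR-DUB complex, which removes ubiquitin from H2A, 1 of 10 tested genes rose and 2 fell. All tested genes gave 16.5% higher and 12.4% lower. OGT, a glycosyltransferase bound to the complex, fell (-0.20 ± 0.059, edgeR adjusted p = 0.0140), MBD6 fell (-0.22 ± 0.076) and MBD5 rose (0.37 ± 0.121). The call of OGT was lost without BARD1-expressing library 3, and those of MBD5 and MBD6 in 5 of 12 alternatives each, among them the omission of control library 2, control library 3, BARD1-expressing library 1 or BARD1-expressing library 3. Its catalytic subunit gene BAP1 was at 0.01 ± 0.052 (adjusted p = 0.952). Among 10 other enzymes that add ubiquitin to H2A or remove it, 2 fell and 0 rose (edgeR), with 0 higher in DESeq2 and limma voom. At an unadjusted p under 0.05, 3 were lower and 0 higher. At least 5912 of the 15400 tested genes passed that cut in either direction. RNF8, a ligase of the DNA damage response, fell from 23.7 ± 0.612 to 17.6 ± 1.47 CPM (SD, n = 3 each, -0.44 ± 0.090, edgeR adjusted p = 5.96e-04). BRCA1 fell by 0.25 on the log2 scale (edgeR adjusted p = 0.0360) and was no longer called in 4 of 12 alternatives, DESeq2 and the omission of control library 1, control library 2 or BARD1-expressing library 3.

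Of 19 genes known to oppose Polycomb, 1 rose and 0 fell (edgeR), with 0 lower in DESeq2 and limma voom as well. At an unadjusted p under 0.05, 4 were higher and 0 lower. At least 5912 of the 15400 tested genes passed that cut in either direction. The gene that rose was SMARCC1, a core SWI/SNF subunit (0.16 ± 0.049, edgeR adjusted p = 0.0145). Its call was lost with the replicate block and without control library 1 or BARD1-expressing library 3. The demethylase genes KDM6A and KDM6B, whose products remove the PRC2 mark, were at 0.0033 ± 0.089 and 0.10 ± 0.110 and did not pass (adjusted p = 0.985 and 0.556). Over all 58 tested genes of the 5 Polycomb lists 8 were higher and 8 lower, with a median log2 fold change of -0.0077. Of all tested genes 16.5% were called higher and 12.4% lower.

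Genes known as Polycomb targets in other cell types went both ways. Of 26 listed, 18 could be tested, and 6 rose and 4 fell (median 0.21). The shares over all tested genes were 16.5% higher and 12.4% lower. FOXC1, a forkhead factor gene, rose from 9.12, 9.20 and 10.5 CPM in control to 14.8, 15.9 and 13.8 CPM (0.63 ± 0.110, edgeR adjusted p = 9.05e-05), and DAB2IP, a RAS GTPase-activating protein gene, rose from 54.4 ± 2.14 to 72.3 ± 3.24 CPM (SD, n = 3 each, 0.41 ± 0.063, edgeR adjusted p = 2.22e-05). GATA6 fell (-0.76 ± 0.181, edgeR adjusted p = 0.00248), on chromosome 18 where 19 neighbours had a median of -0.54. CDKN2A, the locus that BMI1 and CBX8 are best known to repress, stayed outside the calls at 309 and 303 CPM in the group means (-0.03 ± 0.055, edgeR adjusted p = 0.765). It was named after its value was seen, as were the other genes without a call. The adjacent CDKN2B fell (-0.32 ± 0.107, edgeR adjusted p = 0.0245), but not without control library 1 or BARD1-expressing library 2. Without BARD1-expressing library 2 only 3 targets were called higher, and without BARD1-expressing library 3 only 2 were called lower.

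Markers of cycling cells were mostly higher in BARD1-expressing cells. Of 12 proliferation genes 7 rose and 1 fell, and their summed level was 3080 to 3169 CPM in control and 3347 to 3587 CPM in BARD1-expressing libraries, though only 4 rose without BARD1-expressing library 3. AURKA (0.28 ± 0.049), CDK1 (0.28 ± 0.051) and TOP2A (0.25 ± 0.050) rose, and TYMS fell (-0.46 ± 0.058), on chromosome 18 with a median of -0.63 over 12 neighbours. Of 13 genes of the E2F and RB families 1 rose and 2 fell, where all tested genes gave 16.5% higher and 12.4% lower. E2F8 rose from 15.7 ± 0.816 to 25.1 ± 1.90 CPM, while E2F7 fell from 61.5 ± 2.85 to 47.1 ± 1.52 CPM and E2F4 from 120 ± 3.14 to 105 ± 4.64 CPM (SD, n = 3 each, edgeR adjusted p = 4.46e-06, 7.61e-05 and 0.00919). These 3 E2F proteins repress transcription in most settings. Around E2F7 the median of 12 neighbours was -0.32. The call of E2F4 was lost without BARD1-expressing library 3. The part of proliferation in the values of the 9 genes was not tested.

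Genes around the 3 subunits that fell did not fall with them as a block. CBX2 and CBX8 lie tail to tail on chromosome 17, 4148 bases apart, and each had 55 tested neighbours of any kind, coding or not, within 2 Mb. The median log2 fold change of these neighbours was 0.00054 for either gene, with 11 called higher and 4 lower, and the 4 include the other gene of the pair. BMI1 had 11 tested neighbours within 2 Mb, a pseudogene among them, with a median of 0.17, 2 called higher and 1 lower. Around EED the 15 neighbours had a median of -0.16, close to its own value of -0.13, and around the other 5 members the medians lay between -0.04 and 0.05.

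**Figure D4:**
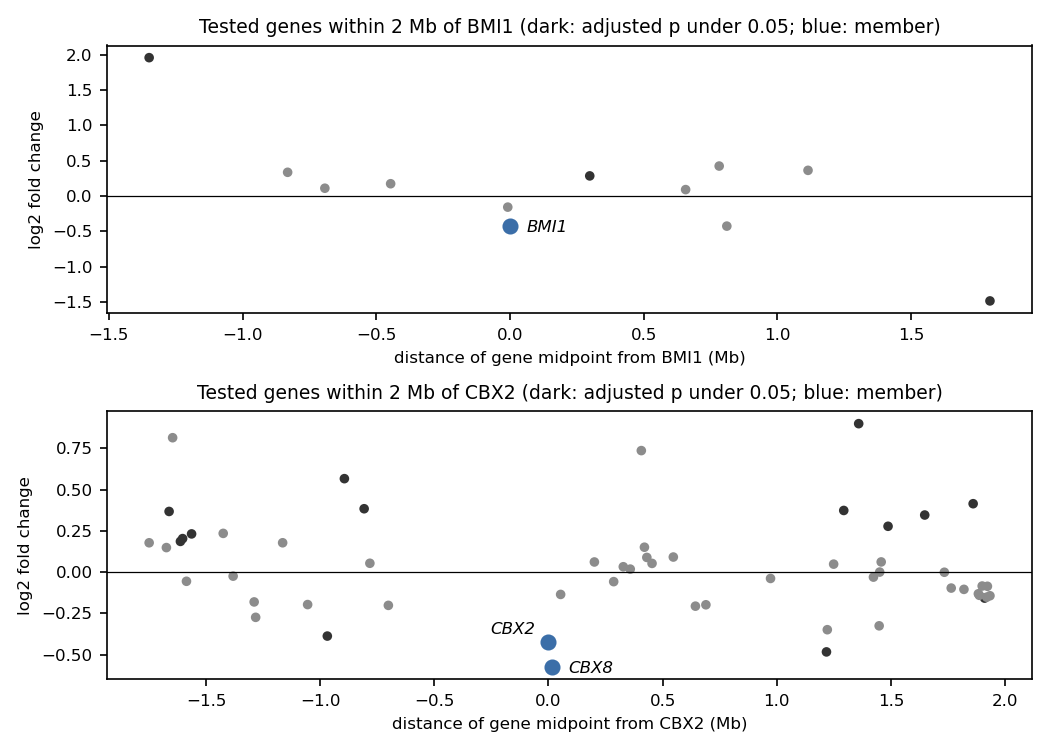
Log2 fold change (vertical axis) of tested genes within 2 Mb of BMI1 (top) and of CBX2 (bottom) against the distance of gene midpoints in Mb, 1 point per gene, dark where called and blue for the subunit genes. CBX2 and CBX8 lie below most of their neighbours, whose median is 0.00054. BMI1 lies below most of its own, whose median is 0.17.

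The 3 calls in BMI1, CBX2 and CBX8 held in 12 of 12 alternatives each, with the log2 fold change at -0.53 to -0.33 for BMI1, -0.50 to -0.36 for CBX2 and -0.70 to -0.49 for CBX8. The other 6 members were called in 0 of 12. The lowest adjusted p over the alternatives, all from edgeR, limma voom or DESeq2, was 0.0503 for EZH1, 0.0519 for EED and 0.0713 for EZH2.

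**Figure D5:**
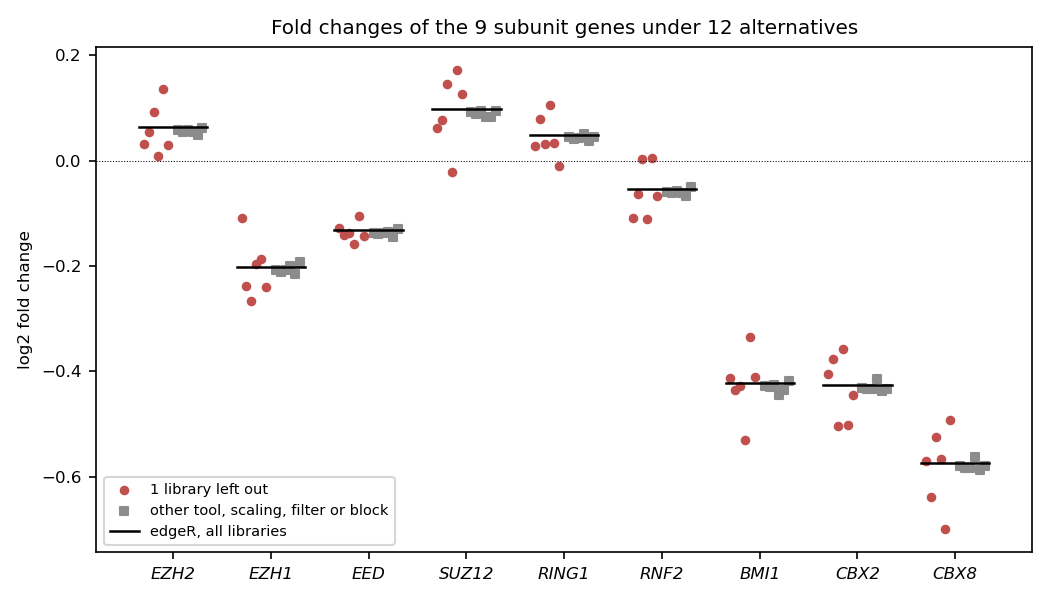
Log2 fold change (vertical axis) of the 9 subunit genes with all 6 libraries in edgeR (black line), with 1 library left out (red, 6 fits) and with another tool, scaling, filter or a replicate block (grey, 6 fits). BMI1, CBX2 and CBX8 stay at or below -0.33 in all of these fits, and SUZ12, RING1 and RNF2 cross 0 in some fits that leave out a library.

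CBX8 had the smallest p of the 9, at rank 1850 of 15400 tested genes. Among 10384 protein-coding genes at a mean of at least 5 CPM, the 5 with the highest Pearson correlation to CBX8 in log2 CPM over the 6 libraries were NAV3, MT-CO3, MT-ND1, UPP1 and DTD2. Their r was 0.998, 0.996, 0.996, 0.995 and 0.994, a description over 6 libraries in 2 groups that were separated for many genes. An r above 0.9 was reached by 532 genes.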

How the data were processed

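Poly(A)-selected RNA was sequenced in 6 libraries, 3 per group, and groups and replicate numbers were taken from the sample titles. The file the authors deposited gives unnormalized counts of reads for each gene, and gene lengths in bases. HISAT2 2.0.5, featureCounts 1.5.0-p3, DESeq2 1.20.0 and the GRCh38 build are named in the submitters' processing notes, without role or options. No source used here says whether reads were counted by strand. Total counts were 12744310 to 24349158, and 3 reads, the limit that a count of 0 allows, are 0.124 to 0.236 CPM, for counting error only. Within groups no 2 libraries were identical, and chi-square per degree of freedom was 3.41 to 8.11, so all were kept. Replicates are called biological without saying that cultures were separate, so a p-value here reflects only variation among these 6 libraries.

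Counts were tested with edgeR 4.0.16 in R 4.3.3 (filterByExpr, TMM, robust quasi-likelihood F test, Benjamini-Hochberg over 15400 genes), and the method was tested on simulated data. SE and 95% intervals are from that fit. Alternatives were DESeq2 1.42.0, limma 3.58.1 voom, DESeq2 size factors, TMM without chromosome 18 and mitochondrial genes, no filter, a replicate block and each library left out. The members and the gene lists were chosen with earlier results of these data known. Named genes are the 9 members, called PRC2 cofactors and canonical PRC1 partners, and up to 4 called genes of each other list with the smallest p, besides those said to be chosen later, and a few results are not reported here. Symbols were matched as deposited, and 1 (EZHIP) through its gene identifier. Promoters are from RefSeq (GRCh38.p14).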

Additional observations from a re-analysis of the deposited data

How the results depend on the processing

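The 9 members gave the same calls in 12 alternatives, and BARD1 stayed called (log2 fold change 1.33 to 1.43 with 1 library left out). Signs turned for SUZ12 (-0.022 without BARD1-expressing library 1; -0.022 to 0.17 over the omissions), RING1 (-0.0092 without BARD1-expressing library 3; -0.0092 to 0.11) and RNF2 (0.0035 without control library 3 and 0.0062 without BARD1-expressing library 2; -0.11 to 0.0062). PRC2 cofactors called higher were 2 in place of 4 with DESeq2, without the filter and with the replicate block, and 2 to 3 with 1 library left out (2 without any 1 control library or BARD1-expressing library 2). DESeq2 gave 0 PR-DUB genes higher in place of 1 and 1 H2A ubiquitin gene lower in place of 2, and the block gave 0 opposing factors higher in place of 1. With 1 library left out, the ranges were 0 to 1 canonical PRC1 genes higher (1 without BARD1-expressing library 1), 0 to 1 variant PRC1 genes lower (0 without control library 2 or BARD1-expressing library 3), 0 to 1 PR-DUB genes higher (0 without control library 2 or 3 or BARD1-expressing library 1 or 3) and 0 to 3 lower (0 without BARD1-expressing library 3), 0 to 3 opposing factors higher (3 without BARD1-expressing library 1) and 0 to 1 lower (1 without BARD1-expressing library 2), 1 to 2 H2A ubiquitin genes lower (1 without control library 2 or BARD1-expressing library 3), 3 to 6 targets higher and 2 to 4 lower, 1 to 3 E2F and RB genes lower (1 without BARD1-expressing library 3) and 4 to 7 proliferation genes higher. The cause of these changes was not tested. Over all genes 1950 to 2617 were called higher and 1367 to 2138 lower with 1 library left out, against 2545 and 1915. The log2 differences in paralog ratios kept their sign in all of their alternatives, at 0.14 to 0.35 (EZH2 to EZH1), -0.21 to -0.017 (RNF2 to RING1), 0.025 to 0.28 (CBX2 to CBX8) and -0.46 to -0.21 (BMI1 to PCGF2) with 1 library left out. Replicate numbers did not pair the libraries: deviations from group means of same-numbered libraries correlated at -0.11, -0.03 and -0.0088 over 15400 genes, and the replicate block called 2296 genes higher and 1694 lower and changed no call of a member (BMI1 -0.42, CBX2 -0.43, CBX8 -0.58). With 3 libraries a group, the 95% intervals of the uncalled members were as wide as -23.9% to -0.700% (EZH1) and -5.23% to 20.9% (SUZ12).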

Other observations

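Of the 26 listed Polycomb targets 8 had too few reads to be tested. TIMP3 and CXCL9 had no read in any of the 6 libraries, which allows up to 0.124 to 0.236 CPM, and GATA4, SOX17 and CXCL10 had at most 1 read in any library. SFRP1 had 2 reads in 1 control library and none elsewhere. CNR1 had 5 to 12 reads in control and 4 to 7 in BARD1-expressing libraries, and HOXD10 had 4 to 9 and 8 to 11 reads. HOXA9 was tested at a mean of 0.545 CPM in BARD1-expressing cells and did not pass (log2 fold change 0.50 ± 0.505, edgeR adjusted p = 0.510). PAX6, a developmental factor gene, was called higher (0.86 ± 0.326, edgeR adjusted p = 0.0498), with overlapping groups at 0.909 ± 0.216 and 1.61 ± 0.516 CPM (SD, n = 3 each), and its call was kept in 2 of 12 alternatives.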
